A study of Caenorhabditis elegans with 11 samples.

Results

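A set of 8 maternal genes of the oocyte was followed through both count tables: oma-1, oma-2, pos-1, mex-1, mex-5 and mex-6, which encode CCCH zinc finger proteins that bind RNA, spn-4, which encodes a protein with an RNA recognition motif, and rme-2, which encodes the yolk receptor. They were chosen by name, with earlier results of these data known, and are 8 of the 46904 gene rows in each table. Gene symbols decided the membership. The identifier list that came with the choice gave mex-5 and mex-6 as WBGene00003231 and WBGene00003232, but the table of gene names gives these as mex-6 and mgl-1, a metabotropic glutamate receptor gene. The gene mex-5 was therefore read from WBGene00003230, and mgl-1, with at most 9 reads in any library, was not counted as a member.

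The mutant animals were Caenorhabditis elegans of strain RB950, cup-4(ok837), and were set against the wild-type strain N2. Gonads of adults at day 1 were used for both, and no other allele or treatment is given. Antisense small RNA was counted in 3 cup-4 and 3 wild-type libraries, and mRNA in 3 cup-4 libraries and 2 wild-type libraries (replicates 2 and 3). The sample labels give the molecule of the mRNA libraries as polyA RNA and the design text calls them total RNA sequencing, so their selection, which bears on mRNA levels and on small RNA per mRNA, is not settled. The labels give each replicate number its own batch, so the same number in both genotypes marks a shared batch. The replicates are called biological, and how many gonads went into each is not stated. Wild-type mRNA of batch 1 was not analysed here. The gene cup-4 acts in coelomocytes, the scavenger cells of the body cavity, so the deletion is carried by the whole animal while the RNA is of the gonad.

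Growing oocytes store mRNA that is translated later, in the maturing oocyte or in the embryo. RNA-binding proteins hold such messages silent or switch them on. The paired proteins OMA-1 and OMA-2 act redundantly in oocyte maturation and repress stored messages. MEX-5 and MEX-6 are close relatives that concentrate in the anterior of the zygote and keep germline proteins to the posterior. POS-1, MEX-1 and SPN-4 act in the early embryo on the fate of posterior and germline cells and on the translation of maternal mRNA. RME-2 belongs to the LDL receptor family and sits on the oocyte surface, where it takes up yolk that the intestine makes and secretes. Antisense small RNA of the C. elegans germline is made largely by RNA-dependent RNA polymerases on mRNA templates and is bound by Argonaute proteins.

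By the RefSeq annotation of assembly WBcel235, which is the build the submitters' processing notes name as ce11, the genes lie on chromosomes II, IV and V. The span of oma-1 (WBGene00003864) is chromosome IV 8888976 to 8890999 and that of oma-2 (WBGene00003865) is chromosome V 8029439 to 8031214. The gene pos-1 (WBGene00004078) spans chromosome V 8414085 to 8415254, and spn-4 (WBGene00004984) spans V 6783187 to 6784903. On chromosome II are mex-1 (WBGene00003228), from 11968637 to 11972347, and mex-6 (WBGene00003231), from 9524174 to 9526358. On chromosome IV are mex-5 (WBGene00003230), from 13353723 to 13356104, and rme-2 (WBGene00004374), from 5470027 to 5473174. Another annotated protein-coding gene overlaps the span of mex-1 (acbp-6) and that of spn-4 (ZC404.15). The mRNA kit keeps strand, but its use in counting is not stated, so reads of these overlapping pairs may not be told apart. The pairs oma-1 with oma-2 and mex-5 with mex-6 are related in sequence, and how reads matching both were assigned is not stated.

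Gene counts summed to between 21290140 and 29559542 per mRNA library and between 14858199 and 39310540 per small RNA library. The mutated gene was checked first: cup-4 mRNA had 23, 37 and 20 reads in cup-4 replicates 1, 2 and 3, against 117 and 85 reads in wild-type replicates 2 and 3. The gene was lower in every library labelled cup-4, with a log2 estimate of -1.90 (SE 0.46), and missed the threshold in edgeR's quasi-likelihood test (adjusted p 0.148). Intestine markers, a list of 14 genes, summed to 112877, 19460 and 34567 CPM (counts scaled to a common library size) of mRNA in cup-4, against 4144 and 3533 CPM in wild type, and none of the 14 was at 0 in any mRNA library. All 14 had a positive log2 fold change (median 2.12), 12 with an unadjusted p under 0.05, where 10.8% of all genes were higher at that p, and 0 past the threshold of 0.05 after adjustment. With batch as a block 9 of the 14 passed, among 199 calls over all 12861 genes tested. DESeq2 called 11 of the 14 among 981 genes, and edgeR without a filter on low counts called 11 among 313. Most of the intestine sums came from vit-2, vit-5 and vit-6. Their mean mRNA was 20114, 14342 and 19684 CPM in cup-4, against 1455, 782 and 1223 CPM in wild type. Sheath and muscle markers summed to 1714 to 4997 CPM in cup-4 and 951 to 1824 CPM in wild type. Sperm markers summed to 137 to 437 CPM in cup-4, and to 254 and 26.5 CPM in wild-type replicates 2 and 3. Markers of mitotic and meiotic prophase germ cells were detected in every library and summed to 2638 to 3320 CPM in cup-4 and 2685 and 3599 CPM in wild type. The part of these other cells in the values below was not tested.

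All 8 genes were well measured, with 3507 to 205772 mRNA reads and 409 to 14371 antisense small RNA reads per library, and all 8 passed the filter on low counts in both assays. To set levels of different genes side by side, CPM was divided by the length of the gene span in kilobases, introns included, since no transcript lengths were at hand. On this scale of mRNA level, rme-2 stood at 2061 ± 729 (SD, n = 3) in cup-4 and 1866 ± 1100.2 (SD, n = 2) in wild type. That placed it 29th in cup-4 and 24th in wild type among 12096 protein-coding genes. Every RNA-binding gene was lower than the receptor, and their order was the same in both genotypes. In cup-4 the levels were 494 ± 53.3 for spn-4, 405 ± 22.2 for pos-1, 327 ± 41.4 for mex-5, 281 ± 16.5 for oma-2, 203 ± 11.6 for oma-1, 181 ± 11.8 for mex-6 and 59.9 ± 9.36 for mex-1. In wild type they were 523 ± 38.8 for spn-4, 484 ± 18.01 for pos-1, 356 ± 106 for mex-5, 332 ± 33.0 for oma-2, 219 ± 48.0 for oma-1, 201 ± 37.97 for mex-6 and 63.5 ± 15.6 for mex-1. Among neighbours in this order, mex-5 and oma-2 overlapped in their ranges in both genotypes, and oma-1 and mex-6, as well as spn-4 and pos-1, overlapped in wild type but not in cup-4. All but mex-1 were at or above the 96.8th percentile of mRNA level in both genotypes, and mex-1 was at percentile 90.3 in cup-4 and 90.4 in wild type.

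The mRNA of the zinc finger genes was close in cup-4 and wild-type gonads, and none of them passed the test given after the values. Of oma-1, 385, 423 and 428 CPM were measured in cup-4 replicates 1, 2 and 3, against 374 and 512 CPM in wild-type replicates 2 and 3. Both wild-type values lay outside the range of cup-4, 1 on each side, and the groups overlapped. The mRNA of its partner oma-2 was at 467, 524 and 506 CPM in cup-4 and at 549 and 632 CPM in wild type. For pos-1 the values were 447, 499 and 474 CPM in cup-4 and 581 and 551 CPM in wild type. In oma-2 and pos-1 every cup-4 library was below both wild-type libraries, although the gaps were small beside the spread that the test allows for. Non-overlap in this direction was found for 17.8% of all 12861 genes tested in mRNA, and for these 2 of the 8, and non-overlap in the other direction for 20.1% of all genes and for 0 of the 8. The mex-1 libraries held 183, 249 and 235 CPM in cup-4 and 195 and 277 CPM in wild type. Those of mex-5 held 668, 856 and 815 CPM in cup-4 and 668 and 1026 CPM in wild type. Those of mex-6 held 366, 407 and 413 CPM in cup-4 and 381 and 499 CPM in wild type. In mex-1, mex-5 and mex-6, as in oma-1, wild-type replicate 3 was the highest of the 5 libraries and the groups overlapped. The mRNA of spn-4 was the steadiest, with 769, 948 and 826 CPM in cup-4 and 852 and 946 CPM in wild type.

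The receptor gene rme-2 was the most abundant of the 8 in CPM and varied most. Its mRNA stood at 6426, 4222 and 8812 CPM in cup-4 replicates 1, 2 and 3, against 3426 and 8324 CPM in wild-type replicates 2 and 3. The groups overlapped, and both batch 3 libraries were higher than both batch 2 libraries. By itself rme-2 took 0.579%, 0.451% and 0.848% of all gene counts in cup-4 and 0.390% and 0.789% in wild type.

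**Figure D1:**
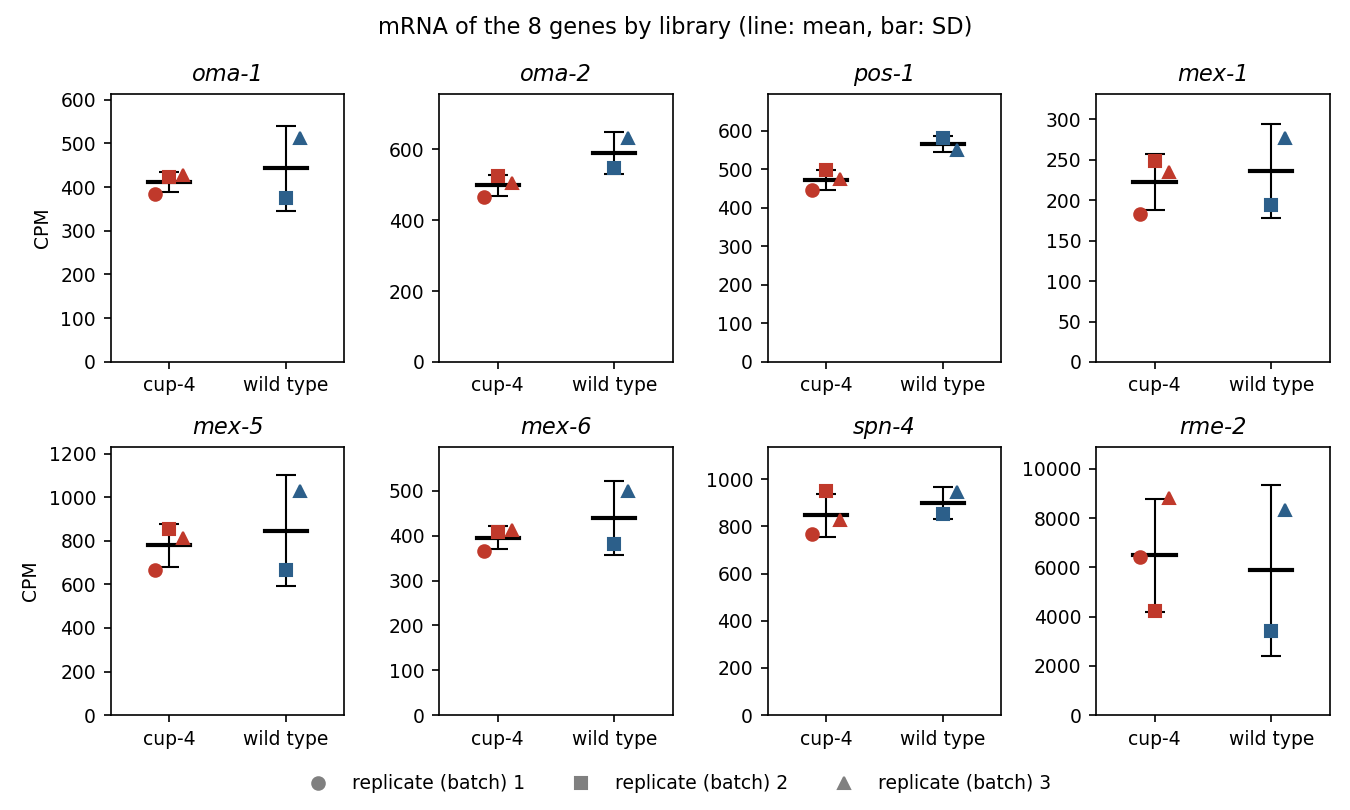
mRNA of the 8 genes in CPM (linear axes from 0), with cup-4 (red, n = 3) left of wild type (blue, n = 2), a line for the mean, a bar for the SD and a marker shape for the batch. The groups overlap in 6 genes, oma-2 and pos-1 are lower in all 3 cup-4 libraries, and rme-2 spans 3426 to 8812 CPM.

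The comparison of genotypes in mRNA was made with edgeR's quasi-likelihood test across all genes, with Benjamini-Hochberg adjustment over all genes tested. None of the 8 passed, 0 had an unadjusted p under 0.05, and the same test called 0 of 12861 genes (0.0%), of which 2209 (17.2%) had an unadjusted p under 0.05 (6.35% lower and 10.8% higher in cup-4). With batch as a block the test called 199 genes, none of the 8 among them, and DESeq2 called 981, again without any of the 8. Log2 fold changes of cup-4 over wild type were negative in 7 of the 8, against 40.6% of all genes, and their median was -0.11 beside 0.16 for all genes tested. The sign was not stable in every gene: mex-1 and mex-5 were at 0.060 and 0.012 with batch as a block. It turned in 7 of 80 values over the alternatives, and stayed negative throughout in oma-2, pos-1, mex-6 and spn-4. The median of the 8 was -0.031 with that block. It moved to 0.034 when wild-type replicate 3 was left out, and to -0.33 when replicate 2 of that genotype was. The median of all genes was then 0.10, 0.12 and 0.13 in that order. It was above that of the 8 in every alternative. In whole gonads a change of RNA per oocyte could not be told apart from a change in oocyte number, and neither is shown here.

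Gene by gene, the differences were smaller than their errors or close to them. The lowest adjusted p in edgeR's quasi-likelihood test was that of pos-1, at 474 ± 25.9 CPM in cup-4 (SD, n = 3) and 566 ± 21.1 CPM in wild type (SD, n = 2). Its estimate was -0.26 on the log2 scale (SE 0.23, edgeR adjusted p 0.629). Next was oma-2, with -0.24 (SE 0.24, adjusted p 0.662). The estimates were -0.15 for mex-6, -0.12 for mex-5, -0.11 for oma-1 and -0.084 for both mex-1 and spn-4, with edgeR adjusted p between 0.801 and 0.907. For the 7 RNA-binding genes the 95% intervals reached down to -0.85 (mex-5) and up to 0.61 (mex-5). For rme-2 the estimate was 0.14 (SE 0.51, adjusted p 0.918) and the interval ran from -1.10 to 1.38, wide enough to hold a difference of more than 2-fold in either direction. This estimate depended on single libraries, being 0.87 when wild-type replicate 3 was left out and -0.36 when wild-type replicate 2 was. Leaving out cup-4 replicate 3 gave -0.14, leaving out cup-4 replicate 2 gave 0.34, and leaving out cup-4 replicate 1 gave 0.087.

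**Figure D2:**
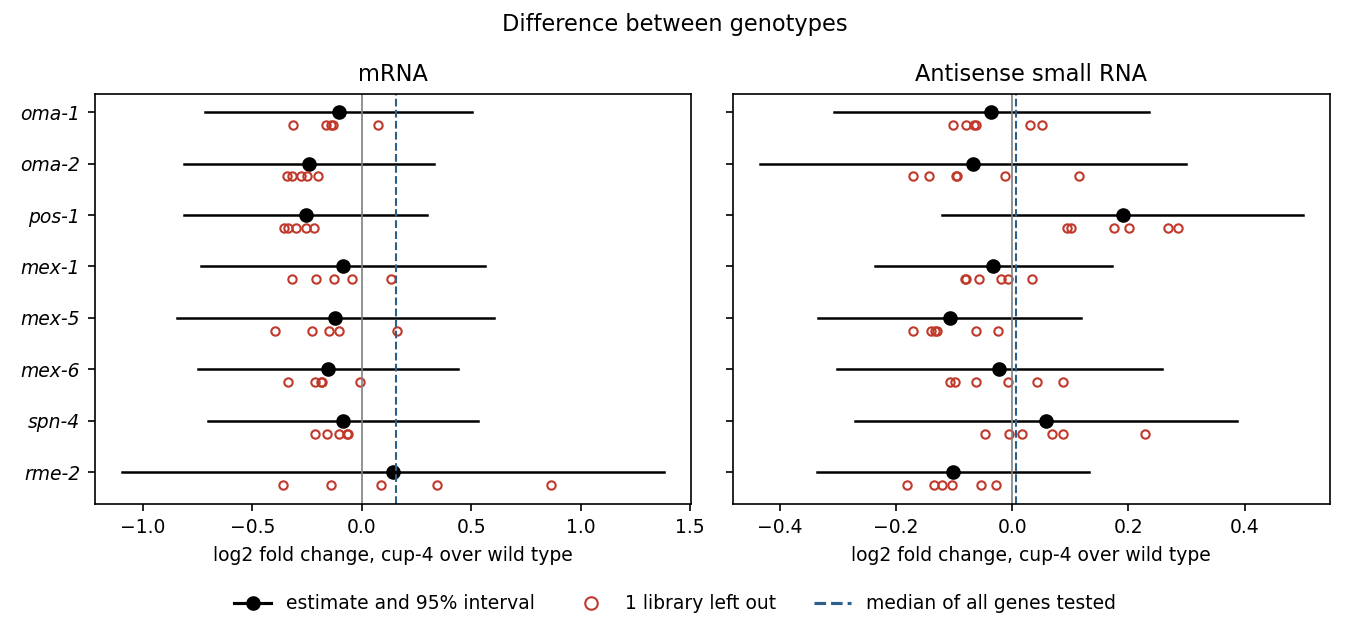
Log2 fold change of cup-4 over wild type for each gene in mRNA (left) and antisense small RNA (right), with the 95% interval as a black line, the values with 1 library left out as open red circles and the median of all genes tested as a dashed line. The intervals include 0 for all 8 genes in both assays, and the widest is that of rme-2 mRNA, from -1.10 to 1.38.

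Within batches the RNA-binding genes had ratios of both signs in batch 2 and of 1 sign in batch 3. In batch 2 the log2 ratio of cup-4 over wild type was 0.17 for oma-1, -0.066 for oma-2, -0.22 for pos-1, 0.35 for mex-1, 0.36 for mex-5, 0.095 for mex-6, 0.15 for spn-4 and 0.30 for rme-2. In batch 3 it was negative for all 7 RNA-binding genes, from -0.33 in mex-5 to -0.20 in spn-4, and 0.082 for rme-2. Only pos-1 and oma-2 were lower in cup-4 in both batches, pos-1 by the same amount in each. Each batch holds 1 library per genotype, so these ratios have no test.

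Between the batches, rme-2 was 2.09-fold higher in batch 3 than in batch 2 in cup-4 and 2.43-fold higher in wild type. The same ratio for the RNA-binding genes lay between 0.871 and 1.01 in cup-4 and between 0.949 and 1.54 in wild type. A ratio of at least 2 in both genotypes was found in 41 of 6096 genes whose mRNA averaged 10 CPM or more (0.673%), in 2.2% in cup-4 and in 8.65% in wild type. The same ratio was reached by 2 genes of the other oocyte and embryo lists. These were gld-2, the gene of a cytoplasmic poly(A) polymerase that acts on stored germline mRNA, and chs-1, the gene of the chitin synthase that builds the eggshell. Levels of gld-2 were 772, 298 and 806 CPM in cup-4 and 141 and 560 CPM in wild type. Levels of chs-1 were 3441, 1530 and 4222 CPM in cup-4 and 611 and 2730 CPM in wild type. Like rme-2, both were lowest in wild-type replicate 2 and low in cup-4 replicate 2. The genes of this group were long, with a median gene span of 9988 bases over the 38 that have one, beside 2606 bases over all 5897 such genes, 3148 bases for rme-2 and a median of 2024 bases for the RNA-binding members. Sperm marker mRNA was 195 and 137 CPM in cup-4 replicates 2 and 3, and 254 and 26.5 CPM in wild-type replicates 2 and 3. The part of gene length and of sperm RNA in the difference between batches was not tested, and this comparison was chosen after the values were seen.

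**Figure D3:**
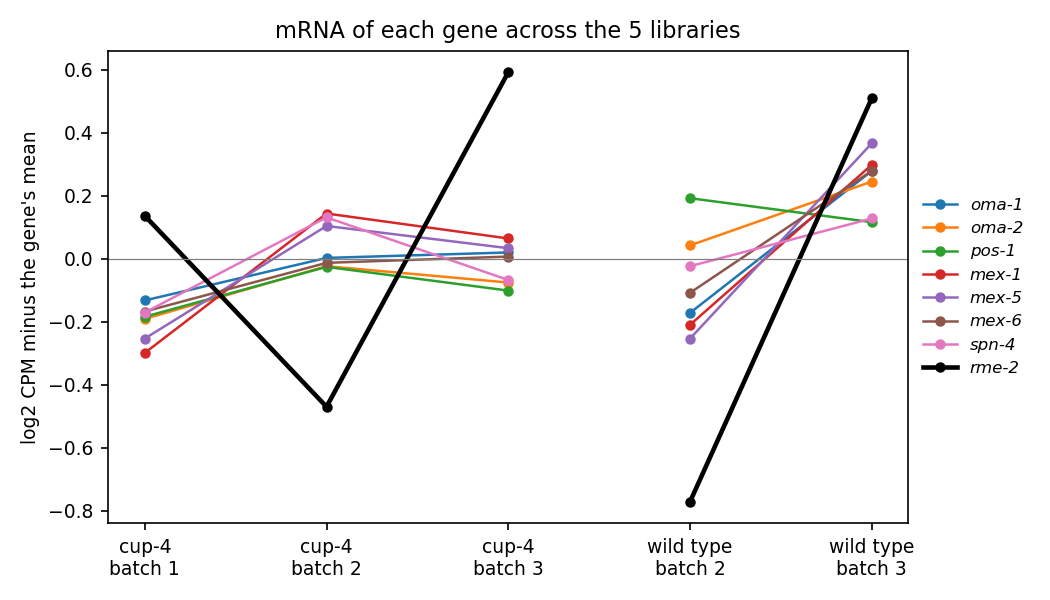
mRNA of each gene in the 5 libraries as log2 CPM minus the mean of that gene, with cup-4 batches 1 to 3 on the left and wild-type batches 2 and 3 on the right. The black line of rme-2 is high in both batch 3 libraries and low in both batch 2 libraries, while the RNA-binding genes stay within a narrower band.

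Spread across the 5 mRNA libraries was compared with that of all 6096 genes of at least 10 CPM, as the highest over the lowest library. The ratio was 1.23 for spn-4, 1.30 for pos-1, 1.35 for oma-2, 1.36 for mex-6, 1.37 for oma-1, 1.51 for mex-1 and 1.54 for mex-5, all below the median of 1.77. For rme-2 it was 2.57, at the 78.6th percentile. In mRNA the RNA-binding genes thus varied less between libraries than the median gene, and rme-2 more. No comparison was made with genes of like mRNA level, so the part of level in this spread was not tested. Small RNA differed: oma-2 and pos-1 (1.45 each) and spn-4 (1.44) were above the median of 1.35 over 6927 genes. There rme-2 (1.27) was below it, as were oma-1, mex-1, mex-5 and mex-6. Summed over the 7 RNA-binding genes, mRNA was 3285, 3906 and 3697 CPM in cup-4, and 3600 and 4442 CPM in wild type, while the ratio of rme-2 to this sum was 1.96, 1.08 and 2.38 in cup-4 and 0.952 and 1.87 in wild type. Relative to the summed germ cell markers of the same library, the RNA-binding sum was 1.25, 1.21 and 1.11 in cup-4 and 1.34 and 1.23 in wild type, with overlap.

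The genes whose mRNA profile over the 5 libraries was most like the mean profile of the 8 were rars-1, K04F10.7, lrr-1, faah-4 and lea-1, with a Pearson r of 0.997 to 0.999 across the 5 libraries. With so few points a high r is common: 325 of 6088 genes (5.34%) reached at least 0.9. Among the members themselves r with the mean profile was highest for oma-1 (0.99) and mex-6 (0.98), lower for rme-2 (0.66), and lowest for pos-1 (0.22). Each member is itself part of that mean, which raises its r, so these values cannot be set beside those of other genes.

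The antisense small RNA of all 8 genes overlapped between genotypes. For oma-1 it was 31.3, 27.5 and 32.3 CPM in cup-4 replicates 1, 2 and 3, against 35.001, 28.4 and 30.0 CPM in wild-type replicates 1, 2 and 3. For oma-2 it was 29.8, 26.6 and 30.2 CPM in cup-4 and 37.8, 27.3 and 26.0 CPM in wild type. For pos-1 the cup-4 libraries had 37.3, 29.6 and 32.9 CPM and the wild-type libraries 33.2, 28.7 and 25.7 CPM. In oma-1 and oma-2 wild-type replicate 1 was the highest library, in pos-1 cup-4 replicate 1 was, with every other library below it. The values of mex-1 were 89.2, 76.4 and 87.3 CPM in cup-4 and 80.8, 88.2 and 89.6 CPM in wild type. Those of mex-5 were 106, 86.7 and 102 CPM in cup-4 and 113, 103 and 102 CPM in wild type. Those of mex-6 were 98.1, 80.4 and 87.2 CPM in cup-4 and 104, 85.5 and 80.7 CPM in wild type. In these 3 mex genes cup-4 replicate 2 was the lowest library. Small RNA of spn-4 came to 66.2, 60.5 and 62.6 CPM in cup-4 and 74.6, 55.5 and 51.8 CPM in wild type. The rme-2 gene had the most, 347, 313 and 345 CPM in cup-4 and 398, 360.4 and 321 CPM in wild type, and its batch 3 to batch 2 ratio was 1.10 in cup-4 and 0.890 in wild type. The 2.09-fold and 2.43-fold ratios of its mRNA thus had no counterpart of that size in its small RNA.

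In edgeR's quasi-likelihood test 0 of the 8 had an adjusted p under 0.05, where 149 of 13336 genes (1.12%) did (0.78% higher and 0.337% lower in cup-4), and 0 had an unadjusted p under 0.05, where 22.8% of genes did. With batch as a block the test called 263 genes and again none of the 8. In all 8 the genotypes overlapped, against 30.6% of all genes without overlap (14.8% lower and 15.8% higher in cup-4). The lowest adjusted p was that of pos-1, at 33.3 ± 3.88 CPM in cup-4 and 29.2 ± 3.77 CPM in wild type (SD, n = 3 each), an estimate of 0.19 on the log2 scale (SE 0.13, edgeR adjusted p 0.418). The sign in pos-1 was the opposite of that in its mRNA, and neither passed. Within batches 1, 2 and 3 the small RNA log2 ratio of pos-1 was 0.17, 0.042 and 0.36, and pos-1 alone of the 8 had the same sign in all 3. That of rme-2 was -0.20, -0.20 and 0.10, and that of mex-5 was -0.088, -0.25 and 0.0057. For the other 7 the log2 fold change lay between -0.11 (mex-5, adjusted p 0.535) and 0.058 (spn-4, adjusted p 0.834). The intervals were narrower than in mRNA, the outermost bounds being -0.43 for oma-2 and 0.50 for pos-1, and that of rme-2 ran from -0.34 to 0.13. Log2 fold changes were negative in 6 of the 8, against 49.3% of all genes, and the median of the 8 was -0.034 beside 0.0065. That median was 0.032 without cup-4 replicate 2 and 0.069 without wild-type replicate 1, and reached -0.087 without cup-4 replicate 1. The median of all genes was then 0.0097, 0.025 and 0.0069 in that order. Scaling by total counts, which moved the median of all genes to 0.12, moved that of the 8 to 0.077, and turned the sign of oma-1, oma-2, mex-1, mex-5, mex-6 and rme-2.

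**Figure D4:**
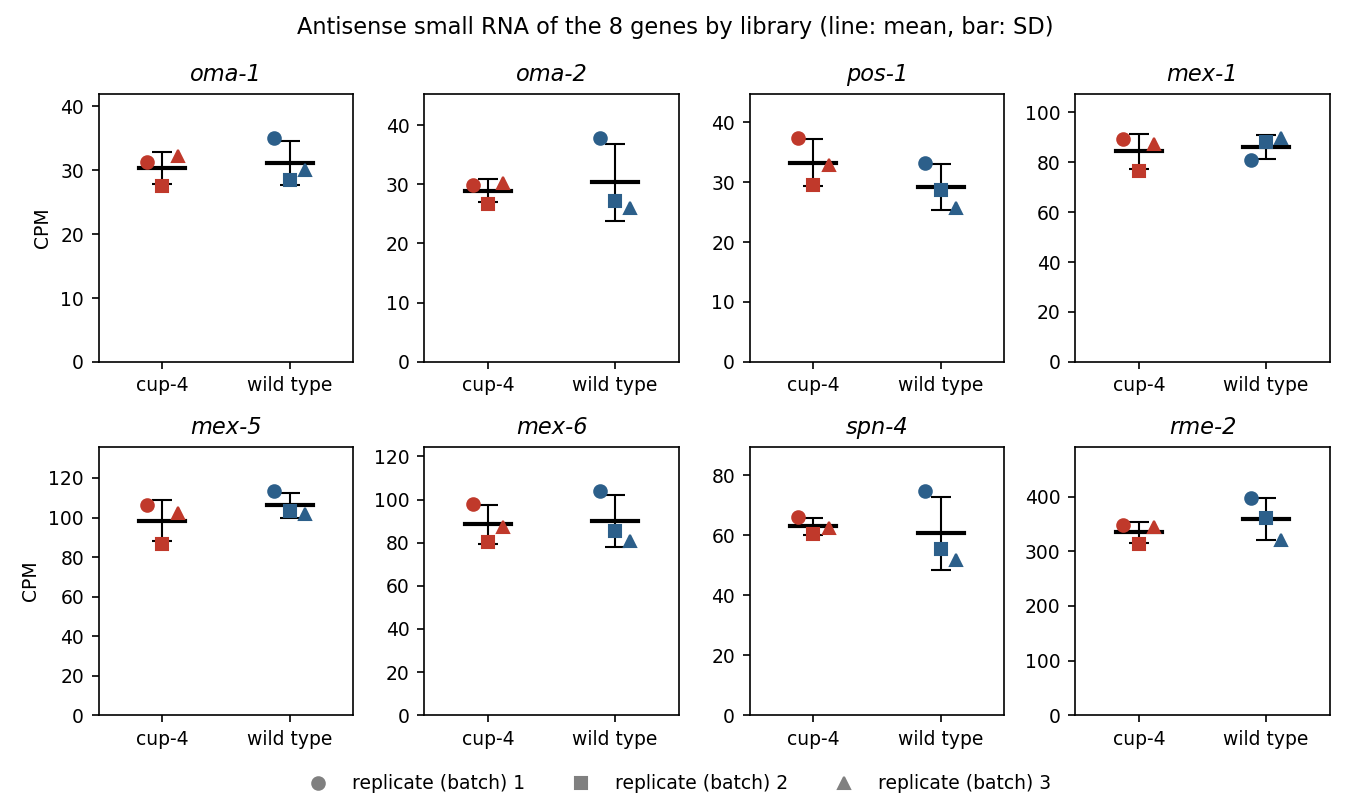
Antisense small RNA of the 8 genes in CPM (linear axes from 0), with cup-4 (red, n = 3) left of wild type (blue, n = 3), a line for the mean, a bar for the SD and a marker shape for the batch. In every gene the genotypes overlap, and rme-2, between 313 and 398 CPM, has the most.

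Per kilobase of gene span the order of small RNA levels differed from that of mRNA levels. The highest was rme-2 at 106 ± 6.14 in cup-4 and 114 ± 12.2 in wild type (SD, n = 3 each), rank 445 in cup-4 and 461 in wild type of 11207 genes. It was followed by mex-5 (41.3 ± 4.36 in cup-4 and 44.5 ± 2.59 in wild type), mex-6 (40.5 ± 4.11 in cup-4 and 41.2 ± 5.57 in wild type), spn-4 (36.7 ± 1.67 in cup-4 and 35.3 ± 7.15 in wild type) and pos-1 (28.4 ± 3.32 in cup-4 and 24.9 ± 3.22 in wild type). Last came mex-1 (22.7 ± 1.87 in cup-4 and 23.2 ± 1.28 in wild type), oma-2 (16.3 ± 1.11 in cup-4 and 17.1 ± 3.65 in wild type) and oma-1 (15.0 ± 1.25 in cup-4 and 15.4 ± 1.69 in wild type). In cup-4 the ranges of mex-5, mex-6 and spn-4 overlapped, and so did those of oma-2 and oma-1. In wild type the same neighbours overlapped, and pos-1 and mex-1 did as well. The 2 oma genes, at or above percentile 97.2 of mRNA level, were between percentiles 66.9 and 69.0 of antisense small RNA level in both genotypes.

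The amount of antisense small RNA per mRNA was taken as the ratio of the 2 CPM values in libraries of the same genotype and number, a measure that gene length does not enter. It was computed for 5728 genes tested in both assays with at least 10 CPM of mRNA, whose median was 0.638, 0.593 and 0.624 in cup-4 replicates 1, 2 and 3 and 0.711 and 0.598 in wild-type replicates 2 and 3. All 8 genes were below these medians in every library. The mRNA CPM is the denominator, and all 8 were at or above percentile 90.3 of mRNA level per kilobase. Their small RNA per kilobase was at percentiles 66.9 (oma-1 in cup-4) to 96.0 (rme-2 in cup-4). No comparison was made with genes of like mRNA level, so the part of high mRNA in these low ratios was not tested. The ratio was 0.0739 ± 0.0082 in cup-4 (SD, n = 3) and 0.0673 ± 0.012 in wild type (SD, n = 2) for oma-1, between the 7.07th and the 11.5th percentile. Values near it were found for spn-4, with 0.0752 ± 0.011 in cup-4 and 0.0599 ± 0.0074 in wild type, and for rme-2, with 0.0558 ± 0.018 in cup-4 and 0.0719 ± 0.047 in wild type. For oma-2 it was 0.0639, 0.0508 and 0.0598 in cup-4 and 0.0497 and 0.0411 in wild type. For pos-1 it was 0.0834, 0.0592 and 0.0694 in cup-4 and 0.0495 and 0.0466 in wild type. In these last 2 genes the ratio was higher in every cup-4 library than in both wild-type libraries, as it was in 20.5% of the 5728 genes, while it was lower without overlap in 15.7% of genes and in 0 of the 8. These are also the 2 genes whose mRNA, the denominator, was lower in every cup-4 library. Wild-type small RNA of replicate 1 does not enter the ratio. It was the highest wild-type value of both genes, 37.8 CPM for oma-2 and 33.2 CPM for pos-1. The highest ratio belonged to mex-1, with 0.389 ± 0.091 in cup-4 and 0.389 ± 0.092 in wild type, at percentiles 31.3 to 41.3. In between were mex-6 (0.225 ± 0.038 in cup-4 and 0.193 ± 0.044 in wild type) and mex-5 (0.129 ± 0.029 in cup-4 and 0.127 ± 0.039 in wild type).

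**Figure D5:**
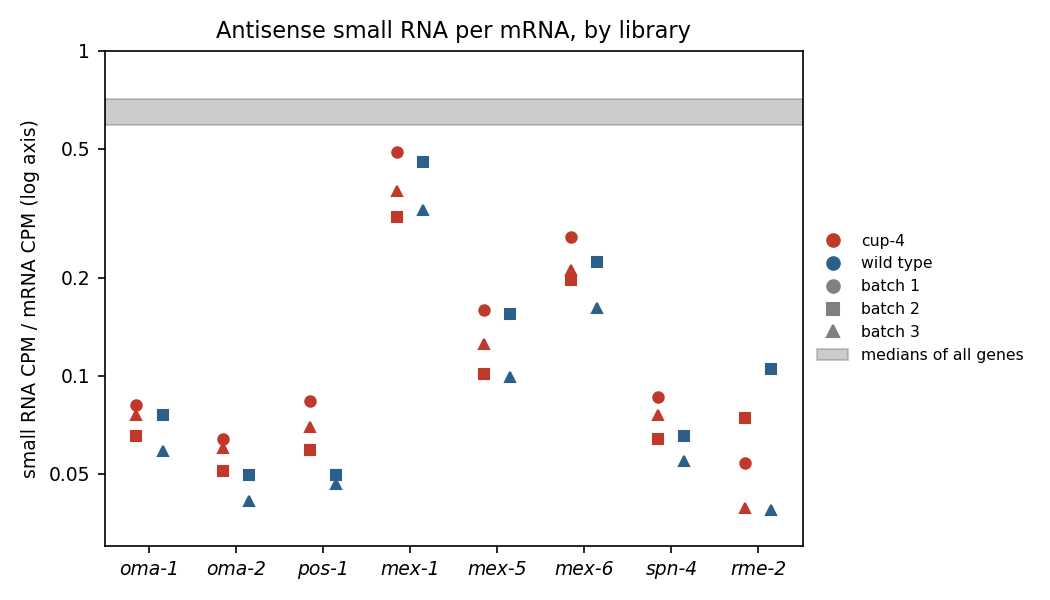
Antisense small RNA CPM divided by mRNA CPM in each pair of libraries (log axis), cup-4 in red left of wild type in blue, with a marker shape for the batch and a grey band for the range of the medians of 5728 genes, 0.593 to 0.711. Every point lies below the band, mex-1 closest to it.

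The related pairs were compared within libraries, where scaling cancels. Per kilobase of gene span, the ratio of oma-1 to oma-2 mRNA was 0.723, 0.707 and 0.742 in cup-4 and 0.599 and 0.711 in wild type, so oma-2 was the more abundant in each library. The ratio of mex-5 to mex-6 mRNA was 1.67, 1.93 and 1.81 in cup-4 and 1.61 and 1.89 in wild type, so mex-5 was the more abundant in each. In small RNA both ratios were near 1: 0.920, 0.905 and 0.936 in cup-4 and 0.813, 0.915 and 1.01 in wild type for oma-1 to oma-2. For mex-5 to mex-6 they were 0.995, 0.990 and 1.08 in cup-4 and 1.00, 1.11 and 1.16 in wild type. The difference of the log2 ratios, cup-4 minus wild type, was 0.15 for the oma pair and 0.048 for the mex pair in mRNA (exact two-sided permutation test, p = 0.2 and p = 0.7). In small RNA the difference was 0.016 for the oma pair and -0.092 for the mex pair (exact two-sided permutation test, p = 0.8 and p = 0.2). Adjusted over these 4 tests the exact p was 0.4 to 0.8, and 0.1 is the smallest p that either design allows. The mRNA difference of the oma pair rested on wild-type replicate 2 and was 0.026 without it, and 0.27 without wild-type replicate 3.

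Other genes of the same processes were read from lists. With the filter on low counts none passed the threshold in either assay in edgeR's quasi-likelihood test, with or without batch as a block. Without that filter the test called 2 of 25 RNA regulators, 1 of 17 eggshell and 3 of 10 polarity genes in small RNA. In mRNA it then called 1 of 25 RNA regulators. These stood among 1651 small RNA and 313 mRNA calls over all genes. Among 25 further RNA regulators of oocytes and germ cells, 17 had a negative and 8 a positive mRNA log2 fold change, with a median of -0.24 beside 0.16 for all genes, and 2 had an unadjusted p under 0.05, both lower in cup-4, where 6.35% of all genes were. The median was -0.12 with batch as a block, -0.051 without wild-type replicate 3, and -0.41 when wild-type replicate 2 was left out. That of all genes was then 0.10, 0.12 and 0.13 in that order. The lower of these 2 p-values was that of ife-3, which encodes a cap-binding translation initiation factor. Its mRNA averaged 91.6 ± 7.90 CPM in cup-4 (SD, n = 3) and 210.2 ± 15.3 CPM in wild type (SD, n = 2), or -1.20 on the log2 scale (SE 0.20, edgeR adjusted p 0.122). Without the filter on low counts edgeR's test called ife-3. DESeq2 called ife-3 with an adjusted p of 0.000957, and its adjusted p ranged up to 0.299 over the alternatives. The other was cey-2, a Y-box protein gene, with 1172 ± 239 CPM in cup-4 and 1985 ± 32.5 CPM in wild type (edgeR adjusted p 0.269). The third of lowest p, nos-2, which encodes a Nanos protein of embryonic germ cells, had 445 ± 50.2 CPM in cup-4 and 614 ± 11.5 CPM in wild type (edgeR adjusted p 0.386). In small RNA 21 of the 25 had a negative log2 fold change, with a median of -0.18 beside 0.0065. That median was -0.076 under total counts, beside 0.12 for all genes, and -0.10 without wild-type replicate 1, beside 0.025. In edgeR's test 7 of the 25 had an unadjusted p under 0.05, all 7 lower in cup-4. Of all genes 22.8% had such a p in either direction. The lowest were those of ifet-1, cey-3 and ife-1 (edgeR adjusted p 0.138 to 0.147). Without overlap, 8 of the 25 were lower in cup-4, where 14.8% of all genes were.

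Genes of the eggshell and of the transition from oocyte to embryo had 8 higher and 9 lower log2 fold changes in mRNA, with a median of -0.078 over these 17, and -0.072 in small RNA over the 15 of them that were tested. The lowest mRNA p was that of cav-1, a caveolin gene of the germline, at 10.2 ± 1.07 CPM in cup-4 and 4.71 ± 1.80 CPM in wild type (log2 fold change 1.12, SE 0.36, edgeR adjusted p 0.206). In small RNA it was egg-4, a gene needed in the egg-to-embryo transition, at 388 ± 22.8 CPM in cup-4 and 485 ± 30.6 CPM in wild type (-0.32, SE 0.085, edgeR adjusted p 0.109), which DESeq2 called with an adjusted p of 0.0261. Without the filter edgeR's test called egg-4 small RNA as well, and its adjusted p reached 0.397 over the alternatives. Both medians turned positive under some settings. In mRNA the median was 0.025 with batch as a block and 0.0078 without wild-type replicate 3. In small RNA it was 0.034 under total counts and 0.017 without wild-type replicate 1. In the same settings and order the median of all genes was 0.10, 0.12, 0.12 and 0.025, higher than the list in each.

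Endocytosis and membrane recycling genes, which serve yolk uptake together with rme-2, had a median of 0.11 in mRNA and -0.044 in small RNA over 15 genes. The mRNA median was 0.50 without wild-type replicate 3, -0.0090 without wild-type replicate 2 and 0.20 with batch as a block. The median of all genes was then 0.12, 0.13 and 0.10 in that order. Their lowest mRNA p was that of rme-4, a gene of the endocytic pathway, at 56.5 ± 8.12 CPM in cup-4 and 35.4 ± 13.7 CPM in wild type (0.68, SE 0.29, edgeR adjusted p 0.309). The sum of the list was 2065, 1756 and 2240 CPM in cup-4 and 1126 and 1999 CPM in wild type, lowest in wild-type replicate 2, as for rme-2. Clathrin heavy chain, chc-1, had the lowest small RNA p, with 222 ± 8.54 CPM in cup-4 and 252 ± 14.6 CPM in wild type (-0.18, SE 0.077, edgeR adjusted p 0.215). Under total counts the small RNA median of this list was 0.068, beside 0.12 for all genes. With 1 library left out the list median lay between -0.11 and -0.022.

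Among 10 polarity genes that act with mex-5 and mex-6, par-5, a 14-3-3 protein gene, had the lowest mRNA p, with 471 ± 72.0 CPM in cup-4 and 845 ± 29.9 CPM in wild type (-0.84, SE 0.26, edgeR adjusted p 0.191). In small RNA all 10 had a negative log2 fold change, with a median of -0.11. That median was -0.0033 under total counts, beside 0.12 for all genes, and -0.066 without wild-type replicate 1, beside 0.025. Of the 10, 5 did not overlap between genotypes, where 14.8% of all genes were lower in cup-4 without overlap. The lowest p belonged to the Polo kinase genes plk-1, with 409 ± 32.0 CPM in cup-4 and 526 ± 34.98 CPM in wild type, and plk-2, with 230.0 ± 13.3 CPM in cup-4 and 291 ± 22.2 CPM in wild type. Their edgeR adjusted p was 0.1004 and 0.106, and DESeq2 called both (adjusted p 0.0170 and 0.0255). Without the filter edgeR's test called both as well, and also par-2 (edgeR adjusted p 0.00441). Over the alternatives the adjusted p reached 0.318 for plk-1, 0.381 for plk-2 and 0.339 for par-2. The small RNA of mex-5 and mex-6 themselves had log2 fold changes of -0.11 and -0.022, neither past the threshold.

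Small RNA of the germ cell markers summed to 2067, 1993 and 2091 CPM in cup-4 and to 2515, 2432 and 2298 CPM in wild type, with no overlap, while that of the 7 RNA-binding genes summed to 458, 388 and 435 CPM in cup-4 and 478, 417 and 406 CPM in wild type, with overlap. The ratio of the RNA-binding sum to the germ cell marker sum was therefore 0.222, 0.195 and 0.208 in cup-4 and 0.190, 0.171 and 0.176 in wild type. Of the 15 germ cell markers 8 had an unadjusted p under 0.05 in edgeR's test, all 8 lower in cup-4, where 22.8% of all genes had such a p in either direction. None had an adjusted p under 0.05 in edgeR's test with the filter on low counts, with or without batch as a block. Without that filter edgeR's test called 5, among 1651 calls over all genes. DESeq2 called 5, among 1173. Antisense small RNA of the intestine markers summed to 41.8 to 76.6 CPM in cup-4 and 21.9 to 35.4 CPM in wild type, and that of the sperm markers to 20.4 to 27.7 CPM in cup-4 and 4.79 to 18.3 CPM in wild type.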

How the data were processed

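The authors' deposited tables hold raw read counts per gene, replicates not pooled. Small RNA reads are antisense to the gene, per the labels. The submitters' processing notes name FastQC, cutadapt, HISAT2, HTSeq and DESeq2 and the build ce11. The annotation, a filter on read length and the strand setting for mRNA are not given in the sources used here. The 5 summary rows (44.0% to 49.1% of small RNA reads, 13.4% to 23.8% of mRNA reads) entered neither library sizes nor tests. Symbols matched 44017 of 46904 identifiers, and 120 of the 121 symbols listed.

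Each assay was fitted by itself in R 4.3.3 with edgeR 4.0.16 (TMM scaling, filterByExpr, robust quasi-likelihood test, genotype only), tested on simulated data. Adjustment ran over all genes tested, with a threshold of 0.05. CPM used TMM-scaled library sizes. SE is |log2 fold change| over the root of the F statistic. Exact permutation tests count splits by absolute difference. DESeq2 1.42.0, the other scalings and filters, the batch block and left-out libraries were alternatives. Named were all members, cup-4, per list and assay up to 3 genes of lowest p, and 5 genes by likeness. The members and lists were chosen with earlier results of these data known.

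Same-numbered libraries share a batch, per the labels, which pairs them. Deviations of same-batch libraries from their genotype means correlated at 0.081, 0.092 and 0.15 in small RNA batches 1, 2 and 3, and at -0.13 and 0.49 in mRNA batches 2 and 3. Replicates differed beyond sampling noise in every pair (chi-square over its degrees of freedom 17.8 or more).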

Additional observations from a re-analysis of the deposited data

How the results depend on the processing

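None of the 8 genes passed the threshold in any of 10 distinct alternatives in mRNA (80 values), where the fit of batches 2 and 3 alone equals that without cup-4 replicate 1, or of 11 in small RNA (88 values), with adjusted p from 0.495 to 0.994 in mRNA and from 0.173 to 0.999 in small RNA. Signs turned in 7 of the 80 mRNA values and 14 of the 88 small RNA values. With the replicate block the mRNA log2 fold changes of mex-1 and mex-5 were 0.060 and 0.012. Under total counts small RNA values turned to 0.074 for oma-1, 0.038 for oma-2, 0.079 for mex-1, 0.0006 for mex-5, 0.082 for mex-6 and 0.0025 for rme-2. With 1 library left out, mRNA ranged from -0.32 to 0.076 for oma-1, -0.32 to 0.13 for mex-1, -0.40 to 0.16 for mex-5 and -0.36 to 0.87 for rme-2. Small RNA then ranged from -0.10 to 0.051 for oma-1, -0.17 to 0.11 for oma-2, -0.081 to 0.035 for mex-1, -0.11 to 0.087 for mex-6 and -0.047 to 0.23 for spn-4. The cause was not tested.

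Differences of the paired log2 ratios with 1 library left out were -0.066 to 0.094 (oma, small RNA) and -0.068 to 0.16 (mex, mRNA), with sign changes, and -0.15 to -0.047 (mex, small RNA) and 0.026 to 0.27 (oma, mRNA), without. The replicate block gave them as 0.016, 0.10, -0.092 and 0.15 in that order.

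Counts over all genes moved more. In small RNA, 149 calls became 1651 without a filter, 1173 in DESeq2 and 263 with the replicate block, and 13 to 406 with 1 library left out, 13 without cup-4 replicate 2. Without cup-4 replicate 1 or 3 or wild-type replicate 3 they were 69, 45 and 62, and without wild-type replicate 1 or 2 they were 406 and 403. Under total counts 84.5% of the calls were higher in cup-4, against 69.8%. In mRNA, 0 calls became 313 without a filter, 981 in DESeq2 and 199 with the replicate block, and stayed 0 with any 1 library left out. The replicate block changed no call among the 8.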
